A study of Drosophila melanogaster with 4 samples.

Results

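The regions described here are the RPD3 clusters of the distal left arm of chromosome 2 (2L) of Drosophila melanogaster, which are stretches of the genome where chromatin bound by RPD3 was called enriched over Input. They were chosen from the combined list of 7145 clusters by 3 criteria, which were a place on 2L, a width under 10 kb and a midpoint at or below position 21011544 of FlyBase release 5. This limit leaves out the 2 Mb next to the centromere. The rule found 1069 clusters. The same limits held 875 clusters in the list of ChIP replicate 1 and 799 in that of ChIP replicate 2, a mean of 837 ± 53.7 (SD, n = 2).

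The study measured RPD3 by chromatin immunoprecipitation and sequencing (ChIP-seq) in nuclei of wild-type Oregon-R larvae at the third instar, with the antibody RPD3-Q3451. There were 2 ChIP samples and 2 Input samples, and each Input served as the background of the ChIP sample of the same number. All 4 samples shared strain, stage and genotype, so no treatment or mutant was compared. No label states that the replicates were separate collections of animals, so their spread could be purely technical. The lists hold positions and 1 score for each cluster but no read counts, and the sequencing depth is unknown.

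RPD3 is a class I histone deacetylase. It removes acetyl groups from lysines of histone tails, and it is the catalytic subunit of the Sin3, NuRD and CoREST-type corepressor complexes. It does not recognise DNA by itself and is brought to chromatin by these complexes and the factors that bind them. The distal part of 2L is euchromatin, and the part towards the centromere passes into heterochromatin. Whole larvae hold many tissues, so a cluster does not tell in which of them RPD3 was bound, and RPD3 bound in more nuclei cannot be told apart from more RPD3 bound per nucleus.

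The 1069 clusters lay a median of 4458 bp apart and covered 3.23 Mb, which is 15.4% of this part of the arm. Their number was 50.9 per Mb. The narrowest was 1001 bp wide, the median width was 2231 bp, the 25th and 75th percentiles were 1630 and 3699 bp, and the widest cluster was 9905 bp. In the replicate lists the clusters under 10 kb covered 13.4% in replicate 1 and 11.7% in replicate 2, a mean of 12.6% ± 1.18 (SD, n = 2). Their median widths were 2470 bp in replicate 1 and 2547 bp in replicate 2. The narrowest replicate clusters here were 1303 and 1304 bp wide. The combined list therefore reached to narrower clusters than either replicate list, and it covered more of the arm.

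The limits of the rule cut through a continuous range of widths. The clusters just inside the width limit were 9905 and 9839 bp wide with scores of 1.05 and 1.22, and those just outside were 10008 and 10129 bp wide with scores of 1.08 and 1.10. At the position limit, the last cluster inside lay at 20935952 to 20937082 (score 0.408) and the one before it at 20924752 to 20928396 (0.461). The first clusters beyond lay at 21019076 to 21020941 (0.347) and 21050868 to 21053030 (0.557). The first cluster from the telomere end lay at 5085 to 6570, with a score of 0.361. Clusters of at least 10 kb on the same part of the arm, which the rule leaves out, numbered 55 in the combined list, and 28 and 15 in replicates 1 and 2. They covered 3.56%, 1.68% and 0.937% of it.

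Most of the covered sequence lay in clusters that both replicates overlapped. Both replicate lists overlapped 581 of the 1069 clusters by at least 1 bp, which is 54.3% (Wilson 95% interval 51.4 to 57.3%), against 51.6% of all combined clusters under 10 kb. These 581 held 75.0% of the covered bases, with each cluster counted over its whole width. Within them, the median share of bases covered was 92.4% in replicate 1 and 86.0% in replicate 2. Replicate 1 alone overlapped 177 clusters (16.6%, against 16.3% of all) and replicate 2 alone 56 (5.24%, against 5.22%). Neither replicate overlapped 255, which is 23.9% (21.4 to 26.5%), against 26.9% of all. The shares were near those of the whole list. Intervals here and below cover counting error only, and the combined and replicate lists are not independent.

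Clusters held by both replicates were wider and scored higher than the others. The score is the authors' own value, on a scale that no source used here defines, and it is used below to describe and rank clusters within a list. The median score was 0.822 for clusters in both replicates, 0.361 for those in replicate 1 alone, 0.335 for those in replicate 2 alone and 0.363 for those in neither. The median widths in the same order were 3484, 1905, 1763 and 1249 bp. Of the 255 clusters in neither replicate, 141 were narrower than 1301 bp, the narrowest replicate cluster on any sequence.

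The scores fell into a dense group of low values, mostly found in 1 replicate or in neither, and a long tail of higher values found in both. Scores below 0.5 were held by 593 clusters, of which 127 (21.4%) were in both replicates. Between 0.5 and 0.75 there were 141 clusters, of which 124 (87.9%) were in both. At 0.75 to 1 the count in both was 132 of 133. At a score of 1 or more it was 198 of 202. The same bands were not counted over all sequences. Whether this relation of score and support is particular to this part of the arm was therefore not tested.

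**Figure D1:**
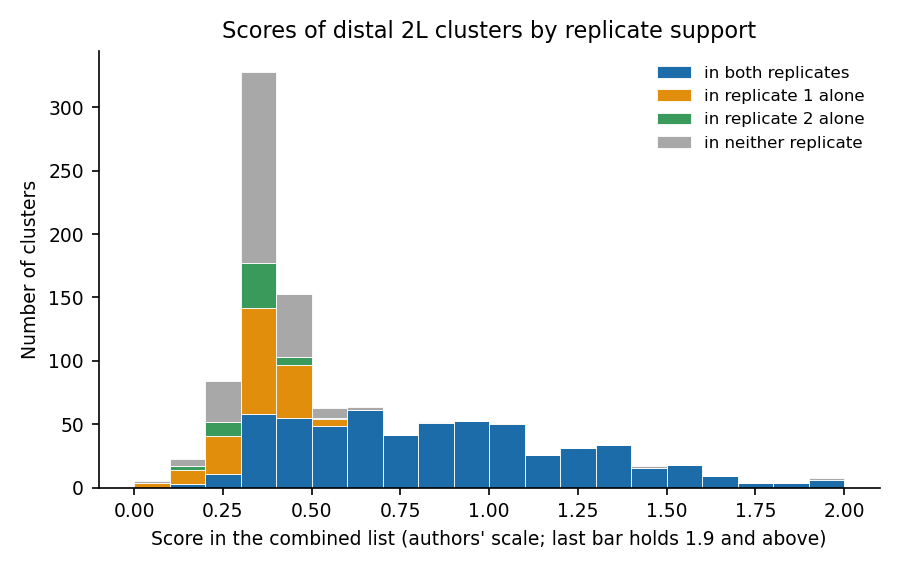
Number of distal 2L clusters (vertical axis) by score in the combined list (horizontal axis, bins of 0.1, the last bar holding 1.9 and above), coloured by which replicate lists overlap them. Of the 593 clusters that score below 0.5, 127 were in both replicates, and of the 202 that score 1 or more, 198 were.

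Score did not change smoothly with width, and stepped up at about 2000 bp. Among the 83 clusters from 1900 to under 2000 bp wide the median score was 0.335 and the highest 0.533. Among the 42 clusters from 2000 to under 2100 bp the median was 0.449 and the highest 1.06, and from 2200 to under 2500 bp they were 0.605 and 3.79. Scores of 0.75 or more were held by 4 of the 454 clusters under 2000 bp (0.881%) and by 331 of the 615 clusters of 2000 bp or more (53.8%). Over all sequences, the counts for combined clusters under 10 kb were 69 of 2931 (2.35%) and 2040 of 3893 (52.4%). All 4 narrow ones on distal 2L were exactly 1001 bp wide. Over all sequences, 8 of 1271 clusters from 1500 to under 2000 bp wide also scored 0.75 or more. The bands were chosen after the plot of width against score was seen.

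The replicate lists, called separately, had the same step. In replicate 1 the median score was 0.465 at 1900 to under 2000 bp (53 clusters) and 0.627 at 2000 to under 2100 bp (70 clusters). In replicate 2 the medians were 0.491 (31 clusters) and 0.603 (33 clusters). Scores of 0.75 or more were held by 1 of 252 clusters under 2000 bp in replicate 1 and by 2 of 230 in replicate 2, against 447 of 623 and 436 of 569 at 2000 bp or more. Over all sequences the shares in replicates 1 and 2 were 1.61% and 1.79% under 2000 bp. At 2000 bp or more they were 73.1% and 75.4%. The step was not particular to 2L, since over all sequences the combined medians were 0.349 at 1900 to under 2000 bp and 0.453 at 2000 to under 2100 bp. Its cause was not tested.

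**Figure D2:**
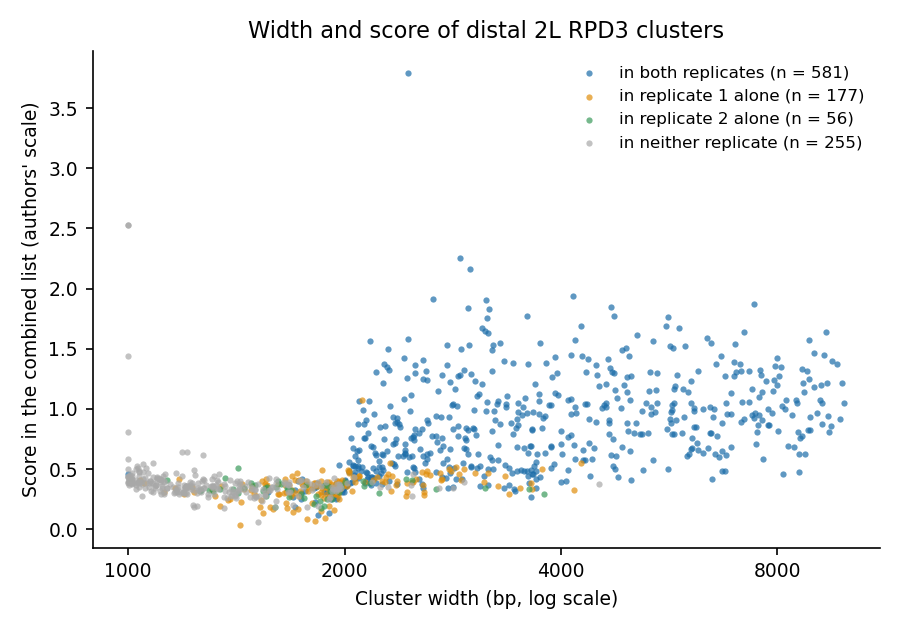
Width (horizontal axis, bp, log scale) and score in the combined list (vertical axis) of the 1069 distal 2L clusters, coloured by replicate support. Clusters under 2000 bp form a flat band of low scores, with 4 at or above 0.75, and higher scores begin at about 2000 bp.

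Support by the replicates changed over the same widths. Of the clusters of 2000 bp or more, 535 of 615 were in both replicates, which is 87.0% (Wilson 95% interval 84.1 to 89.4%), against 85.9% of such clusters over all sequences. Of those under 2000 bp, 46 of 454 were, which is 10.1% (7.68 to 13.3%), against 6.00% over all sequences. Clusters were divided by width into 4 classes of equal size, and each class at its median score. From 2232 to 3699 bp, 134 of 134 clusters at or above the median score were in both replicates, against 79 of 133 below it. In the widest class the counts were 134 of 134 and 128 of 133, and in the narrowest, from 1001 to 1630 bp, they were 1 of 134 and 1 of 134. From 1647 to 2231 bp they were 67 of 134 and 37 of 133, in a class that spans the step in score. Width still varied within each class.

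The highest-scoring cluster of distal 2L was also the highest in both replicates. It lay at 12519231 to 12521680, was 2450 bp wide and had scores of 3.79 (combined), 4.00 (replicate 1) and 3.57 (replicate 2). Of the 10 highest-scoring clusters, 8 were overlapped by 1 cluster in each replicate. The cluster at 601298 to 604194 scored 2.25, with 2.37 and 2.32 in replicates 1 and 2. That at 19507035 to 19510021 scored 2.16, with 2.13 and 2.42. These 3 took ranks 1, 2 and 4 of 875 in replicate 1 and ranks 1, 4 and 2 of 799 in replicate 2.

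The other 5 of these 8 clusters had combined scores between 1.85 and 1.94. The cluster at 20447836 to 20451992 scored 1.91 in replicate 1 and 2.08 in replicate 2. At 13059084 to 13061740 the scores were 2.19 and 1.68, and at 2419422 to 2422567 they were 1.92 and 2.06. The 7433 bp cluster at 13898776 to 13906208, the widest of the 10, scored 1.96 and 2.33. The cluster at 15036086 to 15040783 scored 1.87 and 1.93. The cluster at 13059084 stood apart among them, with rank 3 in replicate 1 and rank 31 in replicate 2.

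The other 2 of the 10 were in neither replicate. They lay at 6881950 to 6882950 and at 18583242 to 18584242, and both were 1001 bp wide, the smallest width among the 1069. Their scores were equal to every deposited decimal, at 2.53, and 1 further combined cluster outside the distal 2L set had that same score and width. The next highest cluster in neither replicate, at 12862286 to 12863286 (score 1.44), was also 1001 bp wide. Besides these 3, a single cluster with a score of 1 or more was not in both replicates. It lay at 15682388 to 15684504, scored 1.08 and was overlapped in replicate 1 alone. In all, 12 clusters were 1001 bp wide, and 11 of them were in neither replicate.

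**Figure D3:**
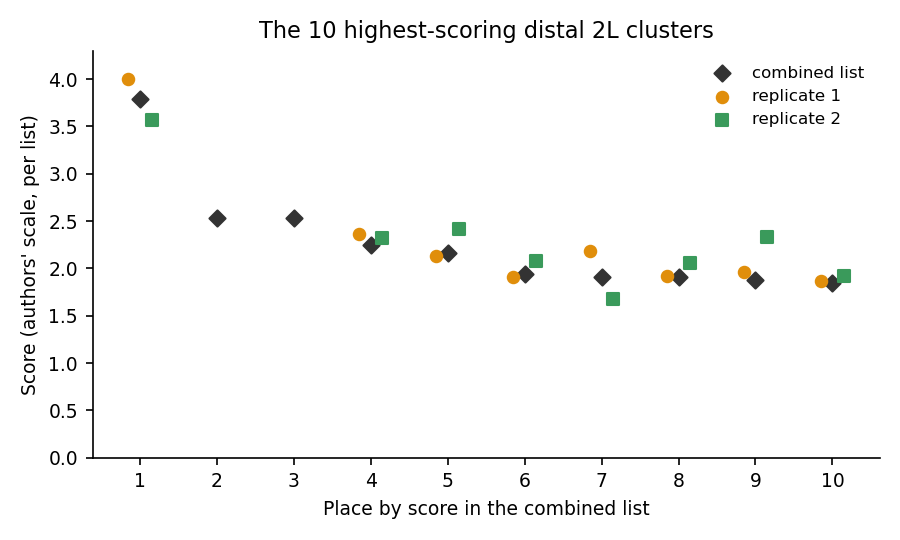
Score (vertical axis, the authors' scale of each list) of the 10 highest-scoring distal 2L clusters in the combined list (diamonds), replicate 1 (circles) and replicate 2 (squares), ordered by place in the combined list (horizontal axis). Places 2 and 3, both at 2.53, have no replicate point, since no replicate cluster overlaps them.

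Equal scores were not limited to these clusters. A score held by at least 1 other combined cluster on any sequence belonged to 150 of the 1069 clusters (14.0%), and the replicate lists had 116 of 875 (13.3%) and 98 of 799 (12.3%). The 150 had a median width of 1364.5 bp, and 88 of them were in neither replicate. Of the 919 clusters whose score no other combined cluster shared, 167 were in neither. The median width of these 919 was 2481 bp.

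The 5 widest clusters scored above the median of the distal 2L clusters, 0.448, but below the 10 highest. They lay at 1707189 to 1717093 (9905 bp, score 1.05), 19447366 to 19457204 (9839 bp, 1.22), 20750177 to 20759966 (9790 bp, 0.916), 18701417 to 18711095 (9679 bp, 1.37) and 5092360 to 5101889 (9530 bp, 1.40). Both replicates overlapped all 5. Those at 19447366 and 20750177 were each split into 2 clusters in both replicates, and the widest was 1 cluster in replicate 1 and 2 in replicate 2. Among the 581 clusters in both replicates, 81 overlapped at least 2 clusters of a replicate, and the median width of these was 6908 bp.

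Most clusters of each replicate on distal 2L overlapped a cluster of the other replicate. Of the 875 clusters of replicate 1, 680 (77.7%, Wilson 95% interval 74.8 to 80.3%) had a counterpart in replicate 2, against 76.6% over all sequences. Of the 799 clusters of replicate 2, 741 (92.7%, 90.7 to 94.3%) had one in replicate 1, against 91.3% over all sequences. In the top 25% of scores 218 of 219 clusters of replicate 1 and 200 of 200 of replicate 2 overlapped the other list. In the bottom 25% 102 of 219 and 155 of 200 did. The combined list overlapped 871 of the 875 clusters of replicate 1 and 799 of the 799 of replicate 2.

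In 584 pairs of distal 2L clusters under 10 kb, a single cluster of each replicate overlapped the other. Their midpoints lay a median of 147 bp apart and within 500 bp of each other in 479 pairs. Since pairs were chosen by overlap, this distance was limited by their widths, and clusters without a counterpart could not enter it. The starts differed by a median of 149 bp and the ends by 137 bp, and no pair had the same start and end. The replicate 1 cluster was the wider one in 388 pairs, with median widths of 2758.5 bp in replicate 1 and 2569.5 bp in replicate 2. The order of the scores was similar in both lists (Spearman's rho 0.88, Pearson's r 0.90, across the 584 pairs). These correlations describe 2 libraries of the same strain and stage, and the pairs are not independent.

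**Figure D4:**
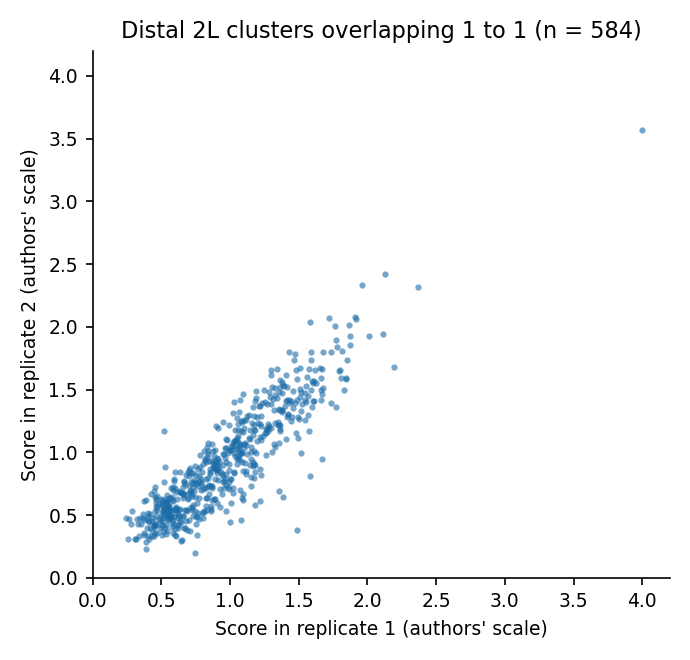
Score in replicate 1 (horizontal axis) against score in replicate 2 (vertical axis) for the 584 distal 2L pairs of clusters that overlap 1 to 1, on the authors' scale. The points follow 1 rising band, with the cluster of scores 4.00 and 3.57 alone at the top.

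The combined clusters were drawn wider than their replicate counterparts. Among 489 clusters matched 1 to 1 with a cluster in each replicate, the combined ones had a median width of 3156 bp, against 2644 bp (replicate 1) and 2489 bp (replicate 2). The combined cluster was wider than both in 414 of these (84.7%) and narrower than both in 0. Ranked within the same 489 clusters, the scores of the 2 replicates differed by a median of 41 ranks. The top 50 of each replicate had 33 clusters in common.

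The clusters with the largest differences in rank all ranked higher in replicate 1. At 739209 to 741253 the score was 1.08 in replicate 1 (rank 176 of 489) and 0.458 in replicate 2 (rank 435). At 3151777 to 3153871 the scores were 1.38 (rank 78) and 0.648 (rank 323). At 14093814 to 14095909 they were 0.997 (rank 210) and 0.445 (rank 442). All 3 were between 2045 and 2096 bp wide in the combined list. In the same order, their clusters were 2041, 2098 and 2081 bp wide in replicate 1 and 1486, 2010 and 1674 bp in replicate 2.

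Some clusters of 1 replicate were overlapped by no cluster of the other. They ranked no higher than 213 of 875 in replicate 1 and 463 of 799 in replicate 2. The highest of replicate 1 lay at 15682477 to 15684484 (score 1.15, rank 213 of 875), 19392911 to 19394969 (0.876, rank 367) and 1006330 to 1007832 (0.814, rank 412). The highest of replicate 2 lay at 11221329 to 11222854 (0.719, rank 463 of 799), 12015133 to 12017162 (0.640, rank 510) and 15041387 to 15042756 (0.635, rank 514). Each of the 6 overlapped a combined cluster, and for that at 12015133 the combined cluster scored 0.964. Other parts of such a combined cluster could still be overlapped by the other replicate. The replicate 1 list held 195 clusters that replicate 2 lacked, with a median score of 0.520 against 0.912 for shared ones. The replicate 2 list held 58 that replicate 1 lacked, with 0.485 against 0.861.

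Along the arm, clusters were dense in a few stretches and sparse in others, and both replicates traced the same pattern. In the 42 windows of 500 kb the number of combined clusters ran from 10 to 54, with a median of 24.5, and the covered share from 3.80% to 32.6%. The densest windows were 8000001 to 8500000 (50 clusters, 32.6% covered), 1 to 500000 at the telomere end (54 clusters, 32.2%) and 10000001 to 10500000 (38 clusters, 28.8%). In replicate 1 these were 33.4%, 28.2% and 31.2% covered, and in replicate 2 they were 25.2%, 24.8% and 30.3%. They were the 3 densest windows in all 3 lists, and in the combined list also with domains of at least 10 kb counted.

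By clusters under 10 kb, the sparsest windows were 14500001 to 15000000 (11 clusters, 3.80% covered), 17500001 to 18000000 (12 clusters, 4.99%) and 17000001 to 17500000 (11 clusters, 5.09%). In replicate 1 they were 2.53%, 4.08% and 3.88% covered, and in replicate 2 they were 1.71%, 3.34% and 5.86%. The first 2 were among the 3 sparsest in all 3 lists, and stayed the 2 sparsest of the combined list with domains of at least 10 kb counted. Such domains covered another 2.78% of 17000001 to 17500000, and with them 15500001 to 16000000 (6.82%) was the next sparsest. How well reads could be placed in these windows is unknown from the lists, so a low share does not show that RPD3 was absent.

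Across the 42 windows the covered shares of the replicates correlated with rho = 0.95 (Spearman) and r = 0.96 (Pearson), as a description of 2 libraries that share a genome. Replicate 1 covered more than replicate 2 in 37 windows. Score did not follow density, since the number of clusters and their median score per window had a Spearman's rho of -0.02 over the 42 windows. The window with the highest median score, 0.794, was 15500001 to 16000000, which held 10 clusters, the fewest of any window. Scores of neighbouring clusters were also nearly unrelated, with a Spearman's rho of 0.03 over 1068 pairs of neighbours.

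**Figure D5:**
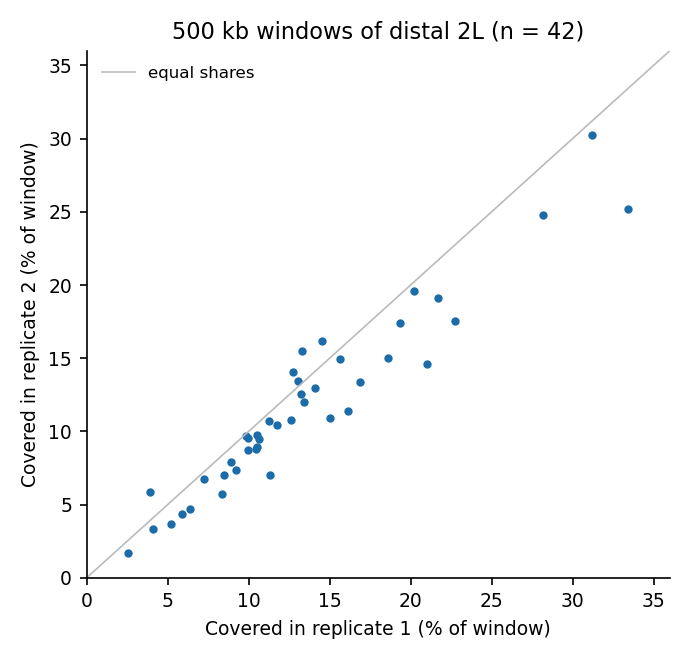
Share of each 500 kb window of distal 2L under clusters narrower than 10 kb in replicate 1 (horizontal axis, percent) and replicate 2 (vertical axis, percent), 1 point per window, with a line of equal shares. The 42 points rise together from under 3% to over 25%, and 37 lie below the line.

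Clusters were fewer in the last of 3 stretches along the distal arm, though not at its end towards the centromere. The distal arm was divided into 3 stretches of equal length, which from the telomere end held 398, 376 and 295 clusters and were 16.9%, 16.9% and 12.4% covered. Replicate 1 had 14.5%, 15.5% and 10.2%, and replicate 2 had 13.0%, 13.5% and 8.71%. The last stretch was thus the least covered in both replicates. Its 500 kb windows were uneven in the combined list. From 14000001 to 18500000 they ran from 3.80% to 16.7% covered. From 18500001 to 21000000 they were 25.4%, 20.0%, 15.9%, 14.3% and 18.8% covered. Median scores of the 3 stretches in the combined list were 0.439, 0.480 and 0.433.

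Clusters often lay close to a neighbour. Of 1068 gaps between neighbouring clusters, 367 were under 2000 bp, which is 34.4% (Wilson 95% interval 31.6 to 37.3%). In the combined list the share was similar on distal 3L (34.2%) and 3R (32.7%). In replicates 1 and 2 it was 27.2% and 25.4% on 3L, and 29.6% and 26.0% on 3R. On distal 2L, 28.3% and 27.4% of gaps in the replicate lists were under 2000 bp, a mean of 27.9% ± 0.578 (SD, n = 2). The median gaps were 5851 and 6019 bp. Gaps under 2000 bp joined 582 combined clusters of distal 2L into 215 runs of at least 2. The other 487 clusters had no neighbour under 10 kb so near. Domains of at least 10 kb were not counted as neighbours here, and 41 clusters lay within 2000 bp of one. Of the clusters in runs, 328 (56.4%) were in both replicates, against 253 (52.0%) of the single ones. The median scores were 0.461 and 0.437.

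The longest runs held 8 clusters each. The widest of them spanned 45043 bp at 13160773 to 13205815, with 92.8% of it covered, and 6 of its clusters were in both replicates. The next spanned 34967 bp at 7009067 to 7044033, with 82.4% covered and 6 in both. The third spanned 19063 bp at 839320 to 858382, with 80.6% covered. It held a single cluster in both replicates, which scored 1.56, and its median score was 0.339. A run can thus be a row of replicated clusters or 1 replicated cluster with low-scoring ones beside it.

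In contrast, 30 gaps were longer than 100000 bp and made up 20.6% of the distal arm. The longest lay at 16916968 to 17184666 (267699 bp), 11528471 to 11795320 (266850 bp) and 1187655 to 1399511 (211857 bp). None of these 3 held a domain of at least 10 kb in the combined list. The first and the second were each overlapped by 1 cluster of replicate 1 and 0 of replicate 2, and the third by 0 and 1.

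Compared with the distal parts of 3L and 3R, chosen in the same way, distal 2L was covered slightly less in both replicates. The mean covered share was 12.6% ± 1.18 on 2L, 13.1% ± 1.37 on 3L and 13.5% ± 1.24 on 3R (SD, n = 2). Within replicates 1 and 2 the share of 2L was 0.952 and 0.967 times that of 3L and 0.932 and 0.929 times that of 3R. Both arms were measured in the same 2 libraries, so the values are paired. The difference of 2L from 3L was -0.669 percentage points in replicate 1 and -0.406 in replicate 2, and from 3R it was -0.982 and -0.899. An exact paired permutation test (two-sided) gave p = 0.5 for each arm, the smallest p that 2 pairs allow, so the design cannot show whether the arms differ. With the analysis limited to the higher-scoring 50% of each list, the mean ratio to 3L was 1.002, on the other side of equality. Clusters in both replicates made up 54.3% of the combined clusters on distal 2L, 50.3% on 3L and 51.9% on 3R, a difference that was not tested because it rests on 1 combined list.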

How the data were processed

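The submitters' processing notes name Bowtie 0.12.7 as a tool. The cluster caller, its thresholds and the joining of replicates are not given in the sources used. Each deposited list gives a start, an end and 1 score per cluster on FlyBase release 5, per the file headers; the deposited score has no stated scale or normalization. No list of the Input samples was used here. The combined list's 1 depleted region was left out.

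Clusters were read as deposited, with 1-based positions. Overlaps needed at least 1 bp and used all clusters of the other list. Gaps were taken between clusters under 10 kb. Shares carry Wilson 95% intervals. Correlations are descriptions with no p, and covered shares of arms were compared by an exact permutation test, paired by library, in place of the planned unpaired one. Interval code was tested on simulated data, where 4 of 4 pairs of lists were recovered exactly. Python 3.11.15, numpy 2.4.6, pandas 2.3.3, scipy 1.17.1 and matplotlib 3.10.9 were used. The gene table given is of release 6, so no gene names or sequences are given.

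The clusters, the lists and the tests were chosen with earlier results of these data known. The regions named are the 10 highest-scoring, the 5 widest, the 3 highest in neither replicate, the 3 with the largest rank difference, the 3 highest found in 1 replicate but not the other, the 2 on each side of each limit, and the 3 longest gaps, longest runs, densest and sparsest windows. The cluster at 15682388 and the window with the highest median score were named after their values were seen. The alternatives were a larger overlap, the higher-scoring 50%, merging, a common minimum width, single replicates, inclusion of clusters of at least 10 kb, other gap limits and counts in place of length. Read depth is unknown.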

Additional observations from a re-analysis of the deposited data

How the results depend on the processing

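With the replicate block, an alternative chosen after seeing the data that compares the arms within each ChIP library, the ratio of covered shares was 0.960 to 3L and 0.930 to 3R, with an exact paired permutation p of 0.5 for each, the smallest 2 pairs allow. The planned permutation without pairing, which takes the arms as independent samples, gave p = 0.667 for each (smallest possible 0.333) and says nothing about the difference. In the higher-scoring 50% of each list, 59.3% of the combined clusters were in both replicates, 81.4% of replicate 1 and 96.1% of replicate 2 overlapped the other list, and the rank correlation of scores was 0.79. The replicate means there were 8.06% covered, 19.0 clusters per Mb, a median width of 3682 bp, a median score of 1.18 and 14.4% of gaps under 2000 bp, and the combined list gave 10.2%, 23.1, 3786 bp, 0.923 and 17.5%. This setting holds fewer clusters by construction. The replicate lists were cut as well, so a replicate cluster in the lower-scoring 50% no longer counted as support. Against the whole replicate lists, 124 of 141 combined clusters scoring 0.5 to 0.75 and 198 of 202 scoring 1 or more were in both. With the higher-scoring 50% of each list, the ratio of covered shares to 3L changed direction, from 0.96 to 1.002. With clusters of at least 10 kb included, the covered share was 13.9% in the replicates and 19.0% in the combined list, the combined median width was 2322.5 bp, and short gaps, in an alternative chosen after seeing the data, made up 29.4% and 36.6%. With clusters closer than 200 bp merged, short gaps made up 24.3% in the replicates and 28.0% in the combined list, whose median width was 2291.5 bp. Among combined clusters at least as wide as the narrowest replicate cluster, 63.5% were in both replicates, the median width was 2505.5 bp and 31.1% of gaps were short. With gap limits of 1000 and 5000 bp the shares were 17.5% and 46.6% in the replicates and 23.6% and 51.6% in the combined list. Leaving out a replicate gave from 59.6% to 70.9% for the combined clusters overlapped by the other. The cause of the shifts other than by construction was not tested. Requiring overlap of 50% of the shorter cluster moved none of the overlap shares beyond their intervals. Without read depth, a missing cluster does not show missing enrichment.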
